A study of Mus musculus with 10 samples.

Results

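The transcriptomes of 6 bladder samples from mice that lacked a secreted proteoglycan, 3 OMD-/- and 3 PRELP-/-, were taken as one knockout group and set against those of 4 wild type (WT) samples, to find the changes that both losses share. The 6 knockout libraries were chosen by the genotype in their sample titles and made up 6 of the 10 libraries in all. The labels give the strain of all mice as C57BL/6, and the study's text names the host strain C57BL/6J. Both alleles are constitutive and were designed to remove exons 2 and 3 of Omd or of Prelp while placing a β-galactosidase gene under the promoter of the lost gene, so every cell lacked the protein throughout life. Age and sex were not given. The labels describe whole bladder tissue, whereas the study's text speaks of isolated epithelia and gives other group sizes, and the labels were followed. Markers of several layers were present in every library, since the 17 umbrella cell markers, which mark the luminal lining, summed to 17339 to 35454 CPM (counts scaled to libraries of equal effective size) and the 16 smooth muscle markers to 901.4 to 2673 CPM.

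OMD (osteomodulin) and PRELP belong to the small leucine-rich proteoglycans, secreted proteins of the extracellular matrix that bind collagen and hold it near cell surfaces, and several members of the family also bind growth factors such as TGF-β. The bladder lining, the urothelium, is an epithelium sealed by tight junctions and resting on a collagen-rich stroma with fibroblasts, vessels and immune cells. When epithelial cells lose their junctions and take on fibroblast-like features, the process is called epithelial to mesenchymal transition (EMT), which TGF-β can drive.

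Prelp followed the labels, whereas Omd was too low to check the OMD-/- label against WT. Prelp was at 215.4 to 317.5 CPM in the 4 WT libraries, at 1.84, 2.11 and 4.20 CPM in the 3 PRELP-/- libraries and at 770.5, 823.4 and 825.6 CPM in the 3 OMD-/- libraries. Prelp therefore moved in opposite directions in the 2 knockouts, and its pooled difference of 0.59 on the log2 scale (SE 1.41, adjusted p = 0.805 by edgeR) describes neither. Omd was barely detected, since WT 1 to 4 held 0, 1, 8 and 12 reads of it, PRELP-/- 1 to 3 held 5, 7 and 7, and the OMD-/- libraries 0, and it was too low to be tested.

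Total counts ran from 20391437 to 46269079 per library, with WT 1 the deepest. Several libraries stood closer together than their labels say. OMD-/- 2 and 3, PRELP-/- 2 and 3, WT 1 and 2, and WT 3 and 4 formed pairs whose biological coefficient of variation was 0.0385 to 0.0942, against 0.168 to 0.381 for every other pair within a group, and whose immunoglobulin V gene profiles correlated at 0.786 to 0.983, against 0.327 to 0.699 (Pearson's r across 218 genes, which are not independent). The pairs differed by more than counting noise, which does not show that they came from separate mice. All 10 libraries were kept, so p-values from them may be too small if the pairs share material. The counts over all genes were also taken with the 4 near pairs summed to leave 6 libraries. PRELP-/- 1 stood apart from its group, with cytosolic ribosomal protein genes at 13% of its counts against 4.36 to 5.63% elsewhere. WT 1 and 2 and PRELP-/- 1 held Y-linked RNA and little Xist, WT 3 and 4 the reverse, and PRELP-/- 2 and 3 and OMD-/- 1 held both, with the summed level of 4 Y-linked genes at 18.1 to 18.7 CPM and Xist at 38.1 to 55.4 CPM. OMD-/- 2 and 3 held 0.805 and 0.731 CPM of the Y-linked genes and 88.8 and 76.6 CPM of Xist. The labels do not mention pooling of mice. The labels do not say that replicates came from separate mice, so p-values measure the spread between these libraries.

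The pooled comparison found more genes lower than higher. Of 16470 genes tested, 3200 passed an adjusted p of 0.05 (19.4%, quasi-likelihood test of edgeR, adjusted by the Benjamini-Hochberg method), 1303 higher (7.91%) and 1897 lower (11.5%) in the knockouts. A change was called common when the gene passed and each of the 6 knockout libraries lay beyond each of the 4 WT libraries. This held for 2569 genes (15.6%), of which 949 rose (5.76%) and 1620 fell (9.84%). Without the adjusted p, the libraries did not overlap for 1444 higher genes (8.77%) and 2008 lower genes (12.2%). Falls were also deeper than rises, as 817 of the common falls but 96 of the common rises were over 2-fold, and the median log2 fold change of all genes tested was 0.0427.

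The 2 knockouts were seldom told apart on these genes. All 2569 common genes had the same sign in OMD-/- and PRELP-/-, which the call itself fixes. A direct test of PRELP-/- against OMD-/- passed for 3 of 16912 genes (0.0177%), and 1 of the 2569 common genes, Ccn1, was among them, with 145 common genes at an unadjusted p under 0.05. With 3 libraries per knockout, a p that misses the threshold does not show that the knockouts act alike.

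Both counts, and the rises most, depended on which libraries were taken as separate. With the near pairs summed, 305 genes were common, 3 higher (0.016% of 18724 tested) and 302 lower (1.61%). Of the 2569 genes, 294 still passed there. All 2569 kept their fitted direction, which the call all but fixes and which is no sign of stability. Igfbp6, Serpina3n and Sostdc1 were the 3 rises, so each of the other rises named below did not pass with the near pairs summed. Among the falls named below that did not pass there were Fgfr3, Per2, Ciart, Smad7, Chad, Egfl7 and Mx2. Without PRELP-/- 1 the common genes numbered 5124, 2465 higher (15%) and 2659 lower (16.2%). Scaling each library to its total count instead of by TMM, a trimmed mean of ratios between libraries, moved the median log2 fold change of all genes to -0.16 and the share of higher genes among those that passed from 40.7% to 11%, with 247 common rises and 2759 common falls.

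**Figure D1:**
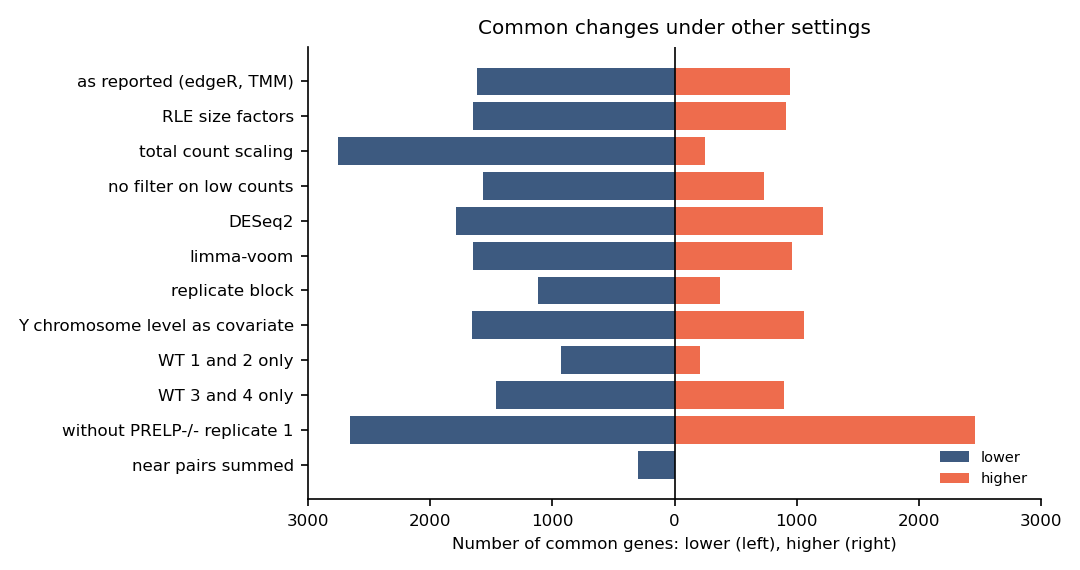
Number of genes common to all 6 knockout libraries (bars to the left lower, to the right higher than in WT) with edgeR and TMM as reported and under 11 other settings. The falls stay at 931 or more in every setting shown except the sum of near pairs, where 302 fall and 3 rise.

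Many long non-coding genes were lower in the knockouts. Of 1151 long non-coding genes tested, 342 fell (29.7%) and 13 rose (1.13%), against 1134 falls (8.1%) and 907 rises (6.48%) among 13999 protein-coding genes. Genes that the GENCODE annotation marks TEC, for transcripts still to be experimentally verified, fell in 99 of 240 cases (41.2%). After summing the near pairs, 85 of 1743 long non-coding genes (4.88%), 30 of 527 TEC genes (5.69%) and 175 of 14777 protein-coding genes (1.18%) fell. Among protein-coding and other named families, the zinc finger genes named Zfp fell in 62 of 350 cases (17.7%), and the Snhg genes, which host small nucleolar RNAs in their introns, in 6 of 13 (46.2%). The share of falls went down with the level of the gene, from 14.8% in the lowest quartile of mean CPM to 4.08% in the highest, while the share of rises went up from 1.55% to 11.1%.

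The same pattern was seen in whole libraries. Long non-coding genes took 0.751, 0.755, 1.03 and 1.03% of the counts in WT 1 to 4, but 0.469 to 0.481% in the OMD-/- libraries and 0.472, 0.473 and 0.54% in the PRELP-/- libraries. The groups did not overlap (0.486% ± 0.027 (SD, n = 6) in the knockouts and 0.891% ± 0.16 (SD, n = 4) in WT, exact two-sided permutation test p = 0.00476, adjusted p = 0.0111 over 7 shares, the smallest p that the 210 arrangements can give). The TEC genes went from 0.0842% ± 0.00492 to 0.0451% ± 0.00869 with the same p. In the other direction, the 10 most counted genes of each library took 8.18% ± 0.676 in the knockouts and 6.15% ± 0.6 in WT, again with the same p. The share of protein-coding genes was 96.8% in both groups, with a p of 1 in this exact permutation test. These tests take the 10 libraries as separate. With the near pairs summed, the 2 WT and 4 knockout units did not overlap for the long non-coding, TEC and 10 most counted genes, but 15 arrangements allow no p under 0.0667, so no share could pass.

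**Figure D2:**
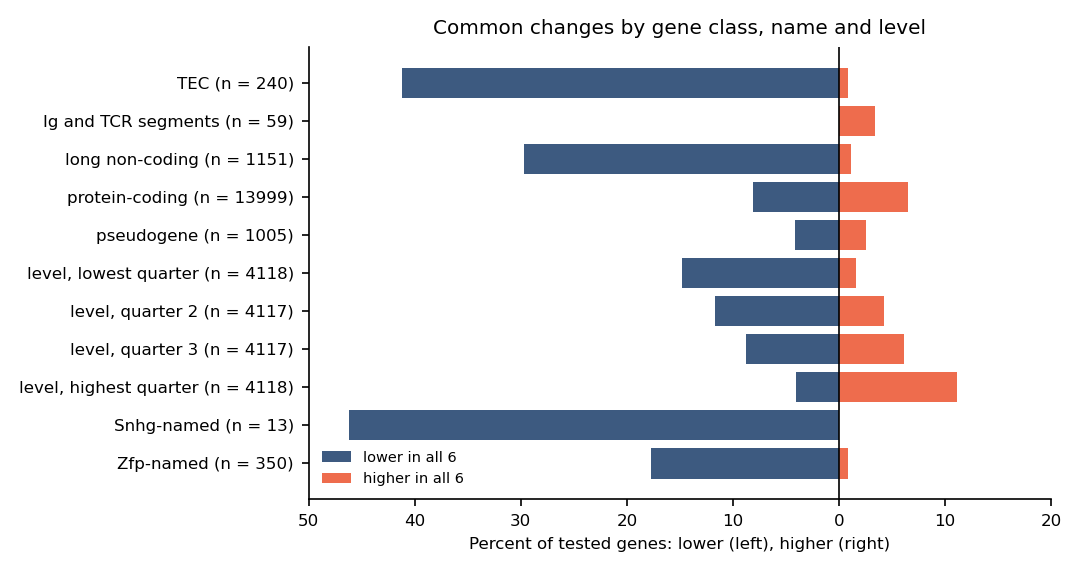
Percent of tested genes that fell (bars to the left) or rose (bars to the right) in all 6 knockout libraries, by GENCODE class, by quartile of mean CPM and by gene name, with the number tested in brackets. TEC, long non-coding and Snhg-named genes have the longest bars to the left, at 41.2, 29.7 and 46.2%, and the share of rises reaches 11.1% in the highest quartile of level.

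The 12 tested RNAs of the next list mostly stay in the nucleus or come from imprinted and host loci, though not every member does. Of these 12, 8 fell (66.7%, against 9.84% over all genes and 29.7% of long non-coding genes), 1 rose (8.33%) and 3 did not meet both criteria. Like all lists here, this one was written with earlier results of these data known. Its share therefore describes the list and is not a test of it. The median log2 fold change was -1.77. Neat1, the RNA scaffold of nuclear paraspeckles, was at 450.9, 381, 343 and 369 CPM in WT, at 13.2, 26.2 and 21.7 CPM in OMD-/- and at 15.7, 17.7 and 15.8 CPM in PRELP-/-. The lowest WT library was thus over 10 times above the highest knockout library, and the log2 fold change was -4.39 (SE 0.19, adjusted p = 7.98e-08 by edgeR). Meg3, a maternally expressed RNA of an imprinted cluster on chromosome 12, ran from 108.2 to 126 CPM in WT and from 2.12 to 5.68 CPM in the 6 knockout libraries (log2 fold change -4.89). Mirg and Rian, RNAs from the same cluster named after their values were seen, fell by 3.07 and 1.42 on the log2 scale.

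Firre, a long non-coding RNA of the X chromosome that helps to organise nuclear architecture, was at 90.2 to 112.7 CPM in WT and at 2.45 to 4.48 CPM in the knockouts (log2 fold change -4.90), in WT libraries with and without Y-linked RNA alike. Snhg11, which GENCODE counts as protein-coding although it is a small nucleolar RNA host gene, went from 97.4 to 114 CPM down to 1.53 to 4.40 CPM. Malat1, a nuclear speckle RNA, chosen after its values were seen, fell less, from 757.8 to 1120.2 CPM in WT to 177.4 to 318.2 CPM in the knockouts (log2 fold change -1.90). Gas5 (log2 fold change 0.17, adjusted p = 0.741) and 2900097C17Rik, the mouse Norad gene (0.16, adjusted p = 0.209), did not pass the edgeR test, and Peg13, an imprinted RNA and the 1 rise of the list, rose by 0.44. With the near pairs summed, 6 of the list passed, among them Firre and Meg3 with adjusted p = 0.00104 and Neat1 with 0.00165 by edgeR.

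The sequences just upstream of 2 of these RNAs are shown because their log2 fold changes were among the most negative of the named genes. They are the 250 bases before the RefSeq start (GRCm38.p6), 5′ to 3′ on the strand of the gene, with matches to any of 4 motifs on either strand in capitals. The motifs were the TATA box TATAAA, the E-box written CACGTG, the GC box written as GGGCGG and, for AP-1, the site TGACTCA.
Firre, chrX:50635322-50635571, minus strand: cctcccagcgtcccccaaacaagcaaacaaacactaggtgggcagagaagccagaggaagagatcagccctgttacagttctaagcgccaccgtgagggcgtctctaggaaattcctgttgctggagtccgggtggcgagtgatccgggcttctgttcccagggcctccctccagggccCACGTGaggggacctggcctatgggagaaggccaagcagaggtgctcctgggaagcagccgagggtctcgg
Meg3, chr12:109540746-109540995, plus strand: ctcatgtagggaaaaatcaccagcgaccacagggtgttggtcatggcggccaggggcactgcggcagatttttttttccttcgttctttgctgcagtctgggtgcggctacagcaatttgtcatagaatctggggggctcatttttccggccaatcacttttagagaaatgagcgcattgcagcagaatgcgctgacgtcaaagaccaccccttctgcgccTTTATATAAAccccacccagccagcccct

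The Firre window held 1 CACGTG, found in 8.1% of the 11578 matched windows of tested genes. The Meg3 window held 2 overlapping matches of TATAAA, one on each strand, where 6.68% of windows hold that motif. A match is a description and not a site of binding. A comparison of motifs between risen and fallen genes was void, because a window was matched for 721 of 949 risen and 1086 of 1620 fallen genes, under 80% of each.

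**Figure D3:**
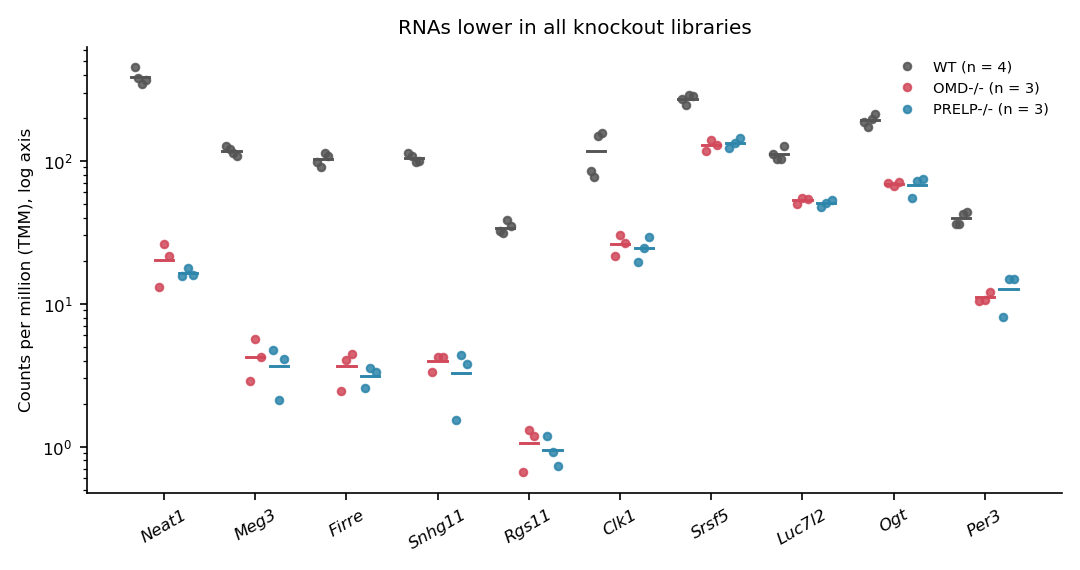
Level of 10 RNAs that fell, in CPM on a log axis, with a point for each library and a line at the group mean for WT, OMD-/- and PRELP-/-. For Neat1, Meg3, Firre, Snhg11 and Rgs11 the knockout points lie more than 10 times below the WT points, and for Clk1, Srsf5, Luc7l2, Ogt and Per3 the gap is smaller but no libraries overlap.

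Regulators of splicing fell together. Of 25 kinases, SR proteins (serine and arginine-rich splicing factors) and partners, 19 fell (76%, against 9.84% over all genes) and 0 rose by edgeR. This list too was written with earlier results known, so its share is a description. At an unadjusted p under 0.05 by edgeR there were 21 members. With DESeq2 20 passed and with limma-voom 20, tools that passed 25.8% and 19.8% of all genes. The list had a median log2 fold change of -0.93, and the median of each knockout library lay between -1.19 and -0.93. Clk1, a kinase that phosphorylates SR proteins, was at 76.6 to 156.4 CPM in WT and at 19.6 to 30.4 CPM in the knockouts (log2 fold change -2.20). Srsf5, an SR protein, went from 247.5 to 286.4 CPM in WT to 116.1 to 144.8 CPM (log2 fold change -1.06), and Luc7l2, a partner of the U1 particle, from 102.1 to 127.5 CPM to 47.4 to 54.6 CPM (-1.10). Ogt, the enzyme that adds N-acetylglucosamine to nuclear proteins and whose RNA keeps an intron, had the smallest adjusted p of the list (log2 fold change -1.49, SE 0.10, adjusted p = 3.03e-06 by edgeR). Son, a highly expressed member, did not pass (log2 fold change -0.36, adjusted p = 0.177 by edgeR). The sum of near pairs left 9 members that passed.

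A smaller share of the clock genes fell. Per3, a repressor of the circadian clock, was at 36.2 to 43.4 CPM in WT and at 8.07 to 14.8 CPM in the knockouts (log2 fold change -1.74, adjusted p = 3.63e-05 by edgeR). Per2 and Ciart, also repressors, fell by 1.10 and 1.49 on the log2 scale. With the near pairs summed these 2 did not pass (adjusted p = 0.133 and 0.152 by edgeR). The falls of Per3, Per2 and Ciart were 16.7% of the list, against 9.84% over all genes. In all, 6 members passed and each of them was lower. The summed level of the list did not overlap, at 869.2 to 954.2 CPM in WT and 697.3 to 860.5 CPM in the knockouts. The other 15 of 18 tested members were not common changes, including Clock (log2 fold change -0.32) and Nr1d1 (0.24), and the time of day of collection was not given in the sources used here.

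Among protein-coding genes, the deepest fall was that of Rgs11, a regulator of G protein signalling, which went from 31 to 38.4 CPM in WT to 0.659 to 1.31 CPM in the knockouts (log2 fold change -5.08, SE 0.18, adjusted p = 3.33e-08 by edgeR). Its exons overlap those of Arhgdig on the other strand, and whether counting used strand was not given. Among the other named genes, such overlaps held for Hoxd4 with Hoxd3os1, Tmem176a with Tmem176b, Sugp2 with Armc6, Efemp2 with Mus81, Egfl7 with Agpat2, Ciita with Dexi and Nr1d1 with Thra. They also held for Ctnnb1 with Ulk4, Son with Donson, Pdia3 with Catsper2, Cfl1 with Snx32, Mcm7 with Cops6 and Ap4m1, and Pcolce with a predicted gene. Hoxd3os1, at a mean of 8.42 CPM, lay above the 4.72 CPM of Hoxd4 in WT, so the fall of Hoxd4 is uncertain. The same holds for the rise of Tmem176a, at 104.7 CPM in WT against 161 CPM for Tmem176b. It also holds for the fall of Egfl7, at 20.7 CPM in WT against 28.6 CPM for Agpat2. Coro6, of the coronin family of actin-binding proteins, Col11a2, a collagen chain, Gpc2, a glypican, Amy1, an amylase, Tgfbr3l, a homologue of a TGF-β receptor, and Hoxd4, a homeobox factor, fell by up to 4.98 on the log2 scale, each from under 8 CPM in WT. With the near pairs summed each of these 7 genes still passed, with adjusted p from 0.00104 to 0.0245.

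The falls with the smallest adjusted p had little spread within each group. Khdc4, an RNA-binding protein that takes part in splicing, was at 70.5 to 78.1 CPM in WT and at 17 to 18.9 CPM in the 6 knockout libraries (log2 fold change -2.03, SE 0.08). Ankrd16, an ankyrin repeat protein, was at 28.5 to 30.4 CPM against 3.62 to 5.17 CPM (-2.74, SE 0.11), Ttc6 at 29.9 to 37 CPM against 5.26 to 6.56 CPM (-2.52, SE 0.11), and Sugp2, a splicing-related G-patch protein, at 40 to 43.2 CPM against 10.1 to 11.7 CPM (-1.91, SE 0.09). PRELP-/- 1, which stood apart in other respects, lay within 1 CPM of another knockout library for each of these 4 genes.

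Among genes of growth factor pathways, Egf, the epidermal growth factor itself, was at 1.52 to 2.80 CPM in WT and at 0.212 to 0.731 CPM in the knockouts (log2 fold change -2.10, adjusted p = 0.00122, and 0.0386 with the near pairs summed, both by edgeR), and it was the only common change among 17 tested EGF pathway genes (5.88%, against 9.84% falls over all genes). Fgfr3, a receptor kinase often mutated in bladder cancer, went from 115 to 134.1 CPM to 63.2 to 81.2 CPM (log2 fold change -0.74, adjusted p = 0.00034 by edgeR). It was the only common change among 24 tested bladder cancer genes (4.17%), whose median log2 fold change was 0, and with the near pairs summed its adjusted p was 0.0989 by edgeR. Smad7, an inhibitor of TGF-β signalling, fell by 0.51 on the log2 scale, with an adjusted p of 0.23 by edgeR after summing near pairs.

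Genes of the collagen matrix were among the rises. Of 27 tested collagens and collagen-processing enzymes, 9 rose (33.3%, against 5.76% over all genes) and 0 fell (edgeR; 23 at an unadjusted p under 0.05, 19 passed with DESeq2 and 17 with limma-voom), with a median log2 fold change of 0.69. Col1a1, a chain of type I collagen, was at 2433, 2326, 1572 and 1603 CPM in WT 1 to 4, at 5092, 6222 and 6379 CPM in OMD-/- and at 3345, 5930 and 5637 CPM in PRELP-/-. The PRELP-/- 1 library was the lowest of the 6 and still above WT, and the group difference was 1.45 on the log2 scale (SE 0.22, adjusted p = 0.000934 by edgeR). Col1a2, the other chain, rose by 1.29. Serpinh1, the chaperone that folds collagen, rose from 254.9 to 308.9 CPM in WT to 482.8 to 736 CPM (log2 fold change 1.10), and Pcolce, which enhances the trimming of procollagen, by 0.95.

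Of 30 matrix glycoproteins, 7 rose (23.3%) and 0 fell (edgeR; 20 at an unadjusted p under 0.05, 17 passed with DESeq2 and 12 with limma-voom), with a median log2 fold change of 0.58. Sparc, a collagen-binding glycoprotein, was at 680 to 900.7 CPM in WT and at 1375 to 2033 CPM in the knockouts (log2 fold change 1.13). Fbln5 and Efemp2, both needed for elastic fibres, rose by 0.91 and 0.82, and Mfap2, of the microfibrils, by 0.75. Ltbp4 and Thbs2 did not pass, with log2 fold changes of 0.82 and 0.53 and adjusted p = 0.0616 and 0.116 by edgeR. In PRELP-/- 1 they were at 307.5 and 273.9 CPM, below every WT library, while in the other 5 knockout libraries they were above every WT library.

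PRELP-/- 1 set the size of these lists. Its median log2 difference from the WT mean was 0 for the collagens and -0.21 for the glycoproteins, against 0.73 to 1.02 and 0.58 to 0.78 in the other 5 knockout libraries. Without it, 23 of the collagens and 21 of the glycoproteins were common rises. With the near pairs summed, the lists kept medians of 0.66 and 0.52, and Col1a1 and Sparc had adjusted p = 0.137 and 0.109 by edgeR.

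**Figure D4:**
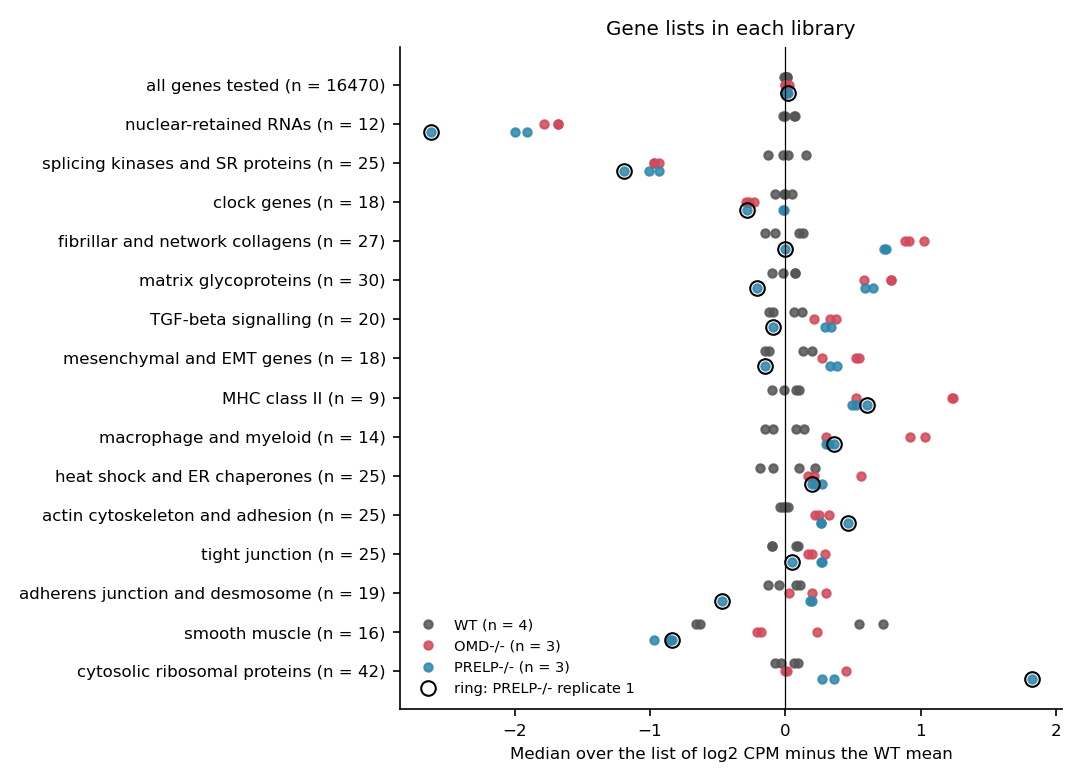
Median log2 CPM of a gene list relative to the WT mean, for each library, with 16 rows of which the first is all genes tested. All 6 knockout points lie below the 4 WT points for splicing genes and for the list labelled nuclear-retained RNAs, a label that does not hold for every member. For collagens and matrix glycoproteins the ringed point of PRELP-/- 1 lies at 0 and -0.21, among or below the WT points.

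Within the family of the lost proteins, Bgn (biglycan), which binds collagen and TGF-β, rose from 351.9 to 579.9 CPM in WT to 907.9 to 1203 CPM in the knockouts (log2 fold change 1.24, SE 0.17, adjusted p = 0.000442, and 0.0923 with the near pairs summed, both by edgeR). Chad (chondroadherin) fell by 1.08 on the log2 scale from under 2 CPM. Dcn (decorin), the most abundant member, was at 1637 to 2447 CPM in WT and at 1645 to 2703 CPM in the knockouts (log2 fold change 0.26, adjusted p = 0.352), and Tsku was flat at 0.04 (adjusted p = 0.835, both by edgeR). Bgn and Chad were the 2 common changes among 13 tested members, 1 rise and 1 fall (7.69% each, near the 5.76% and 9.84% over all genes).

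Of 20 tested TGF-β pathway genes, 3 rose (15%) and 1 fell (5%), against 5.76% and 9.84% over all genes, with a median log2 fold change of 0.24. The ligands Tgfb3 and Tgfb1 rose by 0.77 and 0.56, and Tgfbi, a matrix protein induced by TGF-β, was at 198.8 to 231.3 CPM in WT and at 298.8 to 436.6 CPM in the knockouts (log2 fold change 0.92, adjusted p = 0.000453 by edgeR). Once near pairs were summed, 0 of the list passed (edgeR; 10 of 20 at an unadjusted p under 0.05 in the 10 libraries, 9 passed with DESeq2 and 5 with limma-voom), and Tgfb3, Tgfbi and Tgfb1 had adjusted p = 0.0881, 0.139 and 0.284 by edgeR. The receptor Tgfbr2 did not pass (log2 fold change 0.25, adjusted p = 0.202 by edgeR). Of 18 EMT genes, 15 were fitted higher, 4 passed, all of them higher, and 1 was common (5.56%, near the 5.76% over all genes). Their median log2 fold change was 0.35, with -0.15 as the median in PRELP-/- 1. Their summed level did not overlap, at 1650 to 1764 CPM in WT and 1893 to 2822 CPM in the knockouts. With the near pairs summed 0 passed. The common gene was Vim (vimentin), the intermediate filament of mesenchymal cells. It was at 329.2 to 355.8 CPM in WT and 581.6 to 631 CPM in the knockouts (log2 fold change 0.81, adjusted p = 0.0923 by edgeR with the near pairs summed). Acta2 and Mmp14, the most abundant members that did not pass, had log2 fold changes of -0.46 and 0.57 with overlapping libraries.

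Of 25 tight junction genes, 3 rose (12%, against 5.76% over all genes) and 0 fell (edgeR; 8 at an unadjusted p under 0.05, 6 passed with DESeq2 and 4 with limma-voom). Their summed level was 2648 to 3079 CPM in WT and 3118 to 3400 CPM in the knockouts, without overlap, and without PRELP-/- 1 the list held 7 common rises and 2 common falls. Cldn1, a claudin, was at 17.7 to 20.4 CPM in WT and at 28 to 34.6 CPM in the knockouts (log2 fold change 0.69, adjusted p = 0.11 by edgeR with the near pairs summed), and the adhesion proteins Nectin1 and Nectin2 rose by 0.56 and 0.46. Cldn4, at 407.6 to 467.7 CPM in WT and 416.9 to 705.6 CPM in the knockouts, and Tjp1 did not pass. Of 19 adherens junction and desmosome genes, 0 were common changes (edgeR; 1 passed, 3 at an unadjusted p under 0.05, 3 passed with DESeq2 and 1 with limma-voom), and Ctnnb1 (β-catenin) had a log2 fold change of 0.24 (SE 0.12).

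Of 17 umbrella cell markers 1 rose (5.88%, near the 5.76% over all genes) and 0 fell, with 13 fitted higher and 4 lower. Their summed level was 17339 to 19517 CPM in WT and 20231 to 35454 CPM in the knockouts, without overlap and highest in PRELP-/- 1. Upk2, a uroplakin of the luminal plaque, rose from 975.5 to 1189 CPM in WT to 1383 to 2061 CPM (log2 fold change 0.61), and Upk1a and Upk1b had log2 fold changes of 0.66 and 0.47 without passing (adjusted p = 0.0529 and 0.110 by edgeR). Of 11 basal markers 1 rose (9.09%), with 7 fitted higher, and their sums did not overlap either, at 3106 to 3912 CPM in WT and 3985 to 5469 CPM in the knockouts. Cd44, a hyaluronan receptor, was the member that rose, by 0.47, whereas Krt5 and Krt15 did not pass. Smooth muscle markers ranged as widely within WT as between the groups, since their median log2 difference was -0.66 and -0.63 in WT 1 and 2 and 0.72 and 0.54 in WT 3 and 4. Of 14 fibroblast markers 4 rose (28.6%, against 5.76% over all genes), Col1a1, Ly6a, Cd34 and Thy1, with a median over the list of 0.47. The summed level of that list was 9110 to 9695 CPM in WT, 16249 to 19107 CPM in OMD-/- and 9230 to 17454 CPM in PRELP-/-, and its part in the matrix rises was not tested. In whole tissue, more cells of a type and more RNA per cell cannot be told apart.

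**Figure D5:**
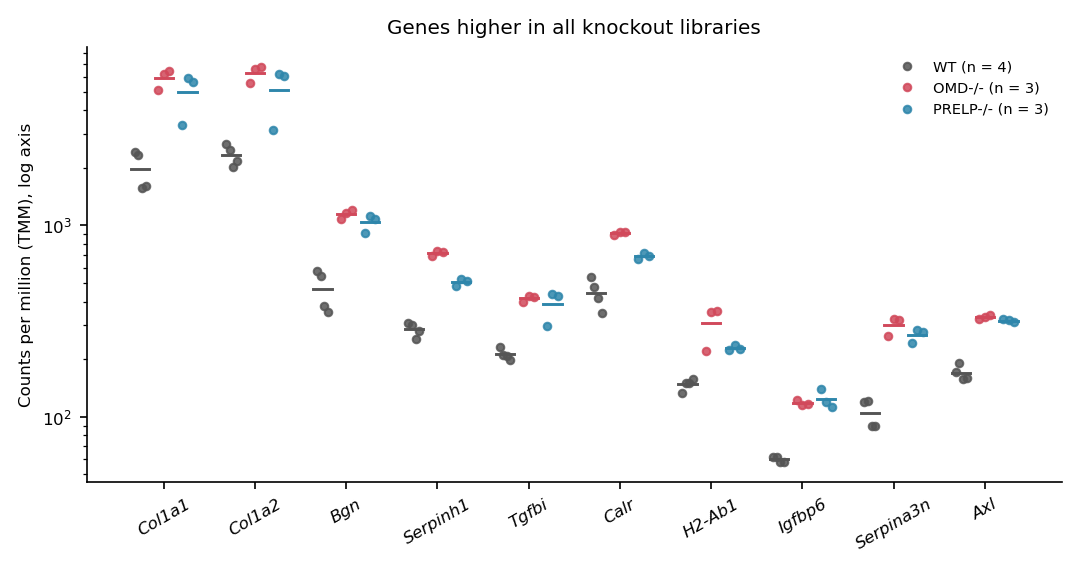
Level of 10 genes that rose, in CPM on a log axis, with a point for each library and a line at the group mean for WT, OMD-/- and PRELP-/-. No knockout point lies below a WT point of the same gene. For Col1a1, Col1a2, Bgn, Serpinh1, Tgfbi, Calr and Serpina3n the lowest knockout point is PRELP-/- 1.

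Genes of antigen presentation rose. MHC class II proteins present peptides on dendritic cells, macrophages and B cells, and 5 of 9 tested genes rose (55.6%, against 5.76% over all genes) and 0 fell (edgeR; 8 at an unadjusted p under 0.05, 7 passed with DESeq2 and 5 with limma-voom), with a median log2 fold change of 0.82. H2-Ab1, a class II chain, was at 132.7, 149.5, 149.9 and 157.7 CPM in WT, at 221, 352 and 358.6 CPM in OMD-/- and at 222.9, 237.3 and 226.2 CPM in PRELP-/- (log2 fold change 0.87, adjusted p = 0.194 by edgeR with the near pairs summed). OMD-/- 2 and 3 were the highest. Ciita, the master activator of class II genes, did not pass (log2 fold change 0.25, adjusted p = 0.654 by edgeR).

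Of 14 macrophage and myeloid markers 5 rose (35.7%), among them the complement genes C1qa and C1qc (by 1.06 and 0.77 on the log2 scale) and Adgre1, the F4/80 antigen (0.75). Their summed level was 451.7 to 548.5 CPM in WT, 529.1 to 947.4 CPM in OMD-/- and 484.6 to 551.3 CPM in PRELP-/-, so the sums overlapped. Lyz2 and Mrc1 did not pass. Of 18 lymphocyte markers Cd79b, a part of the B cell receptor, was the 1 common rise (5.56%, near the 5.76% over all genes). Its level was 0.844 to 1.05 CPM in WT, 1.05 to 2.05 CPM in PRELP-/- and 2.02, 13.8 and 14.7 CPM in OMD-/-. Ighm ran from 55 to 98.4 CPM in WT, was at 12.8 CPM in PRELP-/- 1 and reached 1206 and 1249 CPM in OMD-/- 2 and 3. The immunoglobulin segment Ighv1-78 had no count in any WT library and 0.0471 to 7.38 CPM in the knockouts. Its values in OMD-/- 1 and PRELP-/- 1, 0.0471 and 0.114 CPM, lay below the 3-count floors of 0.141 and 0.170 CPM. The highest were those of the near pair PRELP-/- 2 and 3, at 7.16 and 7.38 CPM. Igkv3-5 was at 0 to 0.0875 CPM in WT and 0.227 to 12.7 CPM in the knockouts. Such segments are near-identical to others and their reads can be split between them.

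Of the 8 largest rises among protein-coding genes, Ccn1, Mmp12, Cd79b and Dnase1l3 had their highest values in OMD-/- 2 and 3 or, for Ccn1, in all 3 OMD-/- libraries, and only Ccn1 passed between the knockouts. Ccn1, a secreted matricellular protein and early response gene, was at 0.844 to 2.88 CPM in WT, 4.08 to 5.09 CPM in PRELP-/- and 43.1, 106 and 105 CPM in OMD-/-. Pooled, it rose by 4.62 on the log2 scale (SE 1.15, adjusted p = 0.0158), and the knockouts themselves differed by -4.23 (PRELP-/- minus OMD-/-, log2, edgeR). Mmp12, a macrophage elastase, and Dnase1l3, a secreted nuclease, were in OMD-/- 2 and 3 at 20.7 and 15.8 CPM and at 10.9 and 11.8 CPM. Sostdc1, an antagonist of BMP and Wnt signalling, was more even, at 2.18 to 4.03 CPM in WT and 7.06 to 11.9 CPM in the 6 knockout libraries (log2 fold change 1.52), and it passed with the near pairs summed (adjusted p = 0.0497 by edgeR). The cytochrome P450 genes Cyp2e1 and Cyp2c23 and the protocadherin Pcdhb2 rose by 1.59, 1.63 and 2.15.

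The Ccn1 promoter, the 250 bases before the RefSeq start with the same 4 motifs in capitals, is shown as that of the largest protein-coding rise. A TATAAA stood directly before a GGGCGG near its end, and 57.6% of windows hold the latter.
Ccn1, chr3:145649986-145650235, minus strand: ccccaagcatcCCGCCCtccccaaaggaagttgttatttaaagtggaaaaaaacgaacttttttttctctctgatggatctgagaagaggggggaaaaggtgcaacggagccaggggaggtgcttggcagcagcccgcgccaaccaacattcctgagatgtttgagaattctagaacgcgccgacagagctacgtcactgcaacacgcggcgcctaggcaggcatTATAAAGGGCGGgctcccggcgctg

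The rises with the smallest adjusted p were even across all 6 knockout libraries. Igfbp6, which binds insulin-like growth factor II, was at 57.8 to 62 CPM in WT, at 123, 114.5 and 116.8 CPM in OMD-/- and at 139.2, 119 and 112.7 CPM in PRELP-/- (log2 fold change 1.01, SE 0.09, adjusted p = 2.5e-05 by edgeR). Serpina3n, a secreted protease inhibitor of the acute phase, was at 89.2 to 120.5 CPM in WT and at 242.1 to 322.8 CPM in the knockouts (log2 fold change 1.44, SE 0.14). These 2 genes and Sostdc1 were the 3 rises that passed with the near pairs summed, Igfbp6 at an adjusted p of 0.03 and Serpina3n at 0.0352 by edgeR. Axl, a receptor kinase that binds Gas6, was at 158.2 to 191.5 CPM against 313.6 to 339.9 CPM, and Tmem176a and the carboxylesterase Ces2g rose by 0.97 and 0.76. The rise of Tmem176a is uncertain because its exons overlap those of Tmem176b.

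Among heat shock and ER chaperones 5 of 25 rose (20%, against 5.76% over all genes), 4 of them folding factors of the ER, Calr, Pdia3, Pdia6 and Canx, with log2 fold changes of 0.44 to 0.85. Of 25 actin and adhesion genes 6 rose (24%), including Msn (0.77), Actg1 (0.68) and Cfl1 (0.46). The more abundant Actb and Tmsb4x did not pass (0.37 and 0.16, adjusted p = 0.11 and 0.623 by edgeR). Of 20 cell cycle genes 5 rose (25%), including the helicase subunits Mcm3 and Mcm6 (0.76 and 0.52). Mcm7, a subunit of the same helicase, and Pcna did not pass (-0.06 and -0.02, adjusted p = 0.807 and 0.936 by edgeR). Of 35 oxidative phosphorylation genes 3 rose (8.57%) and of 25 proteasome genes 2 (8%), shares near that over all genes. Of 14 endothelial markers Vwf rose by 1.09 and Egfl7 fell by 0.95 (7.14% each). The fall of Egfl7 is uncertain because its exons overlap those of Agpat2. Of 42 cytosolic ribosomal protein genes 0 passed (edgeR; 8 at an unadjusted p under 0.05, 4 passed with DESeq2 and 0 with limma-voom), with a median log2 difference of 1.82 in PRELP-/- 1 and 0 to 0.45 in the other knockout libraries. Nerve markers gave 0 of 11 by each of the 3 tools and at an unadjusted p under 0.05, and of 20 interferon-stimulated genes Mx2 fell by 2.13, from under 1.3 CPM.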

How the data were processed

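Poly(A)-selected RNA of 10 bladder samples was sequenced as stranded libraries whose adaptors carry molecular identifiers. The authors deposited 1 file of whole-number read counts per gene and library, for 55536 genes and without normalization. The file headers name HISAT2, while the submitters' processing notes list bcl2fastq, STAR 2.5.2b, featureCounts, DESeq2 and the builds GRCm38 and hg38 without roles. The strand setting, the annotation and the use of the identifiers are not given in the sources used here. The deposited tables of the authors' own DESeq2 comparisons (mean level, fold change, statistic, p-values) were not used. The 37 mitochondrial genes hold 0 counts in every library, so mitochondrial share could not be checked.

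Gene symbols, classes, overlaps and coordinates came from GENCODE vM21 (GRCm38), in which every gene identifier was found. Counts were filtered with filterByExpr, scaled by TMM and fitted with the robust quasi-likelihood test of edgeR 4.0.16 in R 4.3.3 on 2 groups, two-sided, with Benjamini-Hochberg adjustment over 16470 genes and a threshold of 0.05. Log2 CPM used a prior count of 2, and errors are SE from the fit or SD over libraries. The difference between the knockouts came from a fit with 3 groups. The scripts were tested on simulated data. Alternatives were RLE scaling, no filter, DESeq2 1.42.0, limma-voom (limma 3.58.1), a 3-group fit, the replicate number as a block, the summed Y-linked level as a covariate, WT 1 thinned, and each library left out, and, chosen after seeing the data, near pairs summed, total count scaling, each WT pair alone and protein-coding genes alone.

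The libraries, the 34 gene lists and the rule for named genes were chosen with earlier results of these data known. Named were Omd and Prelp. Among common changes with a mean of at least 1 CPM, the 8 largest rises and falls of protein-coding genes and the 4 of other genes were named. At 10 CPM or more, so were the 5 risen and 5 fallen protein-coding genes of smallest adjusted p. In each list up to 4 members that passed and 2 that did not were named. Predicted genes were counted but not named. Between OMD-/- and PRELP-/-, deviations from the group mean correlated at 0.32, 0.19 and 0.16 for replicates 1, 2 and 3. Libraries of different number were not compared, and replicates 2 and 3 form a near pair in both knockouts. These values therefore do not show that the numbers pair libraries. With the replicate number as a block, the count of common genes that differed between the knockouts did not change. Undetected genes have a floor of 3 counts per library, 0.0599 to 0.170 CPM. Intervals and floors cover counting error only. The results of 1 further gene that the rule would name are not reported here.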

Additional observations from a re-analysis of the deposited data

Results flagged for a closer look

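Of 82 checks for a single library far from the rest of its group, 8 found one. The checks share libraries and counts and are not independent, so their number was not set against a chance rate. PRELP-/- 1 was the library in 6 of the 8. It had the highest shares of counts in long non-coding genes (0.54%, others 0.469 to 0.481%), pseudogenes (1.03%) and cytosolic ribosomal protein genes (13%) among the knockouts, the lowest share in TEC genes (0.0282%), and the lowest Snhg11 and Ces2g levels, at 1.53 and 93.5 CPM. Coro6 was highest of the knockouts in OMD-/- 2, at 0.593 CPM, and Col11a2 was highest of the WT libraries in WT 4, at 3.24 CPM. Leaving out PRELP-/- 1 raised the count of common genes from 2569 to 5124.

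The knockouts differed from each other, by the direct test, for Prelp (log2 PRELP-/- minus OMD-/- of -8.24) and for Ccn1 (-4.23).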

How the results depend on the processing

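Of 96 genes picked by the naming rule that passed, 26 kept their side of the threshold in every setting tried. Of the 96, 0 changed direction, which the lack of overlap in the call largely fixes. The sum of near pairs (chosen after seeing the data) left 305 genes passed and 305 common, 3 higher and 302 lower, and 0 common genes that differed between the knockouts, at 6 libraries. Total count scaling gave 396 higher and 3203 lower, 247 and 2759 of them common. WT 1 and 2 alone gave 1142 passed and common, 211 higher and 931 lower. The groups share replicate numbers, but same-numbered WT and knockout libraries did not deviate together (r from -0.11 to 0.14), and with the replicate block 1564 genes passed, 403 higher and 1161 lower, and 1496 were common, 376 of them higher. A fit of the knockout libraries alone found 0 common genes that differed between knockouts. In the 3-group fit Prelp had a log2 fold change of -2.53, since the mean of the knockouts is then taken on the log scale.

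With each library left out in turn, genes passed ranged from 1961 (without WT 3) to 6415 (without PRELP-/- 1), higher 617 to 3101, lower 1344 to 3314, common 1877 to 5124, common higher 568 to 2465 and common lower 1309 to 2659. Without WT 4, 2000 genes passed and 589 were common and higher. Common genes that differed between the knockouts ranged from 0 to 7, the 7 without OMD-/- 1. The share of protein-coding genes, knockout minus WT, ranged from -0.278 to 0.281 percentage points. The other settings left each count within 1.5 times of that reported. The cause of these differences was not tested. Depth was 20391437 counts or more per library and limits genes of low level, such as Omd.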
